A study of Mus musculus with 8 samples.

Results

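The miR-17/92, miR-106a and miR-106b/25 clusters are 3 related microRNA (miRNA) clusters of the mouse genome, and this account follows their listed mature arms through sperm small RNA. Members were the rows of the miRNA class whose name equals 1 of 10 listed arms: mmu-miR-17-5p, mmu-miR-18a-5p, mmu-miR-19a-3p, mmu-miR-20a-5p, mmu-miR-19b-3p, mmu-miR-92a-3p, mmu-miR-106a-5p, mmu-miR-106b-5p, mmu-miR-93-5p and mmu-miR-25-3p, written below without the mouse prefix. Of these 10 names, 9 had a row, among 952 miRNA features and 1010917 features of all classes. No row carried the name miR-106a-5p, which is not analysed here. Of the 9 members with a row, 8 had enough counts to be tested.

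The libraries came from spermatozoa of C57BL/6J mice, 4 labelled Control-Cessation (controls) and 4 labelled EtOH-Cessation (EtOH libraries). Per the title of the series all 8 follow a period without alcohol, and the labels give no age, dose or other allele. The sample titles say mature sperm, whereas the design text names the caput, the upstream end of the epididymal duct. Nothing in the labels ties a library to its own animal, and the p-values therefore reflect spread among libraries that may be technical.

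Each miRNA is cut from a hairpin precursor that yields a 5p and a 3p arm, and a mature arm loaded into an Argonaute protein pairs with messenger RNAs mainly through its seed, the bases near its 5′ end. The miR-17/92 cluster, carried by the noncoding transcript Mir17hg, is known for promoting proliferation and survival and for shaping lymphocyte and germ cell development. The miR-106a and miR-106b/25 clusters are its paralogs, the latter lying within the replication gene Mcm7. Members of the clusters are found in spermatogenic cells, and sperm also take up small RNA while they pass through the epididymis.

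By RefSeq and GENCODE M21 on GRCm38.p6, the 6 hairpins of miR-17/92 lie at chr14:115043671-115044506 on the plus strand, within exon 2 of Mir17hg. The 6 hairpins of miR-106a lie at chrX:52741693-52742567 on the minus strand, and part of that span overlaps exon 2 of the noncoding gene Kis2. The 3 hairpins of miR-106b/25 lie at chr5:138165321-138165818 on the minus strand, inside Mcm7 and outside its annotated exons. These positions describe the reference, since the build behind the deposited table is not given in the sources used here. The mature miR-19b-3p and miR-92a-3p sequences are encoded on both chromosome 14 and chromosome X, so a read of either cannot be assigned to 1 cluster.

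The mature sequences are shown because members that share a seed, or nearly the whole sequence, had very different counts. All 10 listed names matched RefSeq, and capitals mark the seed, bases 2 to 8 from the 5′ end. The first 5 share 1 seed, miR-18a-5p has its own, and the last 4 form a pair of pairs.
mmu-miR-17-5p: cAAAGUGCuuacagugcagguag
mmu-miR-106a-5p: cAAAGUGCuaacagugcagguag
mmu-miR-20a-5p: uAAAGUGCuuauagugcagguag
mmu-miR-106b-5p: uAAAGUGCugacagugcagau
mmu-miR-93-5p: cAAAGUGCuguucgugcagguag
mmu-miR-18a-5p: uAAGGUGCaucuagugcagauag
mmu-miR-19a-3p: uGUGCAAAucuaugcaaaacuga
mmu-miR-19b-3p: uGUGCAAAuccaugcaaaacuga
mmu-miR-92a-3p: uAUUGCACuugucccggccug
mmu-miR-25-3p: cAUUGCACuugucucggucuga

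Counted from the 5′ end, with the base of the first-named miRNA written first, miR-17-5p and miR-106a-5p differ by U10A alone. miR-17-5p and miR-20a-5p differ by C1U and C12U, and miR-19a-3p and miR-19b-3p by U11C alone. Over their first 21 bases, miR-92a-3p and miR-25-3p differ at 3 positions. How the authors treated reads that match several of these sequences is not given in the sources used here. A split of reads between miR-17-5p, miR-20a-5p and miR-106a-5p, or between the miR-19 pair, was not tested.

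Summed counts per library ran from 4210785 to 4768713 in the controls and from 3116421 to 6805989 in the EtOH libraries. miRNA features held 16.8 to 27.7% of the counts in controls and 6.96 to 10.1% in EtOH libraries. EtOH replicate 2 stood apart, with the fewest counts and 30.5% of them in messenger RNA exons, against 7.07 to 10.4% in the other 7 libraries. Levels below are CPM, counts relative to library size after scaling with edgeR's default factors (trimmed mean of M values). Log2 fold changes are EtOH over control. The test was edgeR's quasi-likelihood F test with Benjamini-Hochberg adjustment over all 10234 features tested and a threshold of 0.05.

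All 8 tested members had lower values in the EtOH libraries, by a fitted 2.58- to 3.41-fold. None of the 8 passed the threshold, where 0.137% of all features and 0.439% of miRNA features did in the lower direction. In 7 of the 8 every EtOH library lay below every control library, as in 7.81% of all features and 48.7% of miRNA features tested. The median log2 fold change of the tested members was -1.59, beside -1.56 for all miRNA features tested and -0.09 for features of every class. All 8 lay between the quartiles of the miRNA class, -1.92 and -1.04. The members are described by seed in what follows.

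**Figure D1:**
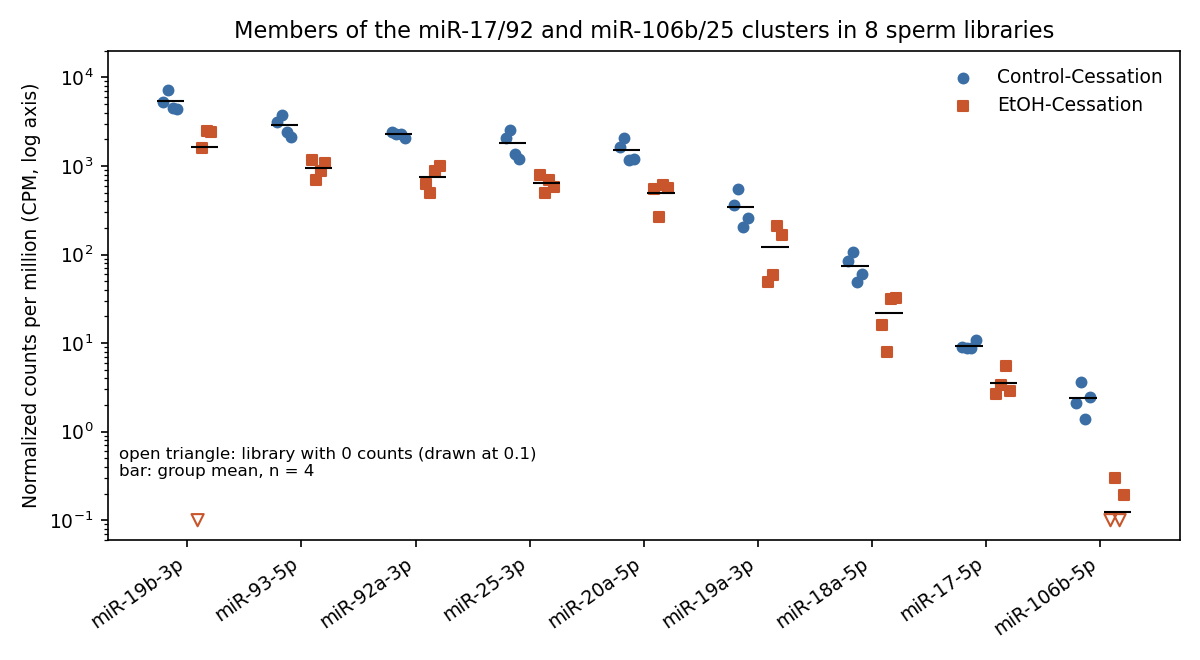
Normalized CPM (log axis) of the 9 members in 4 Control-Cessation (circles) and 4 EtOH-Cessation (squares) libraries, with bars at group means and open triangles for libraries with 0 counts. Controls lie above the EtOH libraries for each member except miR-19a-3p, and miR-19b-3p is at 0 in EtOH replicate 1.

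Among members with the seed shared by miR-17-5p, miR-93-5p had the highest mean CPM. It was at 3103, 3790, 2428 and 2144 CPM in controls 1 to 4, and at 1177, 694, 868 and 1090 CPM in EtOH libraries 1 to 4. The groups did not overlap, and EtOH replicate 2 was the lowest. The means were 2866 ± 736 and 957 ± 218 CPM (SD, n = 4 each), a log2 fold change of -1.58 (SE 0.36, edgeR adjusted p = 0.0525).

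miR-20a-5p, the second of that seed by level, was at 1633, 2091, 1169 and 1209 CPM in controls and at 547, 267, 606 and 567 CPM in EtOH libraries. Control replicate 2 was highest, EtOH replicate 2 lowest, and the groups were separate. The log2 fold change was -1.62 (SE 0.39, edgeR adjusted p = 0.0525).

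miR-17-5p, which gives the family its name, had few reads: 34, 29, 31 and 44 counts in controls and 17, 11, 36 and 15 in EtOH libraries. Scaled, these were 8.97, 8.88, 8.71 and 10.8 CPM against 2.65, 3.33, 5.45 and 2.89 CPM. The raw counts overlap, through the deeply sequenced EtOH replicate 3, and the CPM do not. The log2 fold change was -1.37 (SE 0.39, edgeR adjusted p = 0.0545).

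miR-106b-5p, the remaining measured member of that seed, had 8, 12, 5 and 10 counts in controls and 0, 1, 0 and 1 in EtOH libraries. It was too low for the count filter and so was not tested with the others. Its totals of 35 and 2 counts, set against scaled library sizes, gave a control to EtOH ratio of 25.6, with a 95% counting interval of 6.58 to 219.8. That interval pools the libraries of a group and covers counting error alone, so the spread between libraries is left out. Fitted with no filter on low counts, a choice under which 0.0203% of all features and 2.95% of miRNA features were lower and past the threshold, it had a log2 fold change of -4.26 (SE 0.89, edgeR adjusted p = 0.00237). With so few counts that fold depends on the small count the fit adds. In that fit it was the only member of 9 past the threshold.

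miR-18a-5p differs from that family within the seed. It was at 83.6, 106.3, 49.5 and 60.9 CPM in controls and at 16.1, 7.87, 31.6 and 32.2 CPM in EtOH libraries. The groups were separate, and EtOH replicates 1 and 2 were below EtOH replicates 3 and 4. Its log2 fold change of -1.77 (SE 0.49, edgeR adjusted p = 0.0541) had the largest size among the tested members.

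miR-19a-3p and miR-19b-3p, known as the arms with the strongest oncogenic activity in the cluster, differ by 1 base. miR-19a-3p was at 362, 548, 202 and 258 CPM in controls and at 49.5, 59.4, 208 and 166 CPM in EtOH libraries. Its groups overlapped, since EtOH replicate 3 lay above control replicate 3, and its log2 fold change was -1.50 (SE 0.52, edgeR adjusted p = 0.0932).

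miR-19b-3p was the member with the highest mean CPM. It had 20157, 23340, 16103 and 17997 counts in controls and 0, 5225, 16396 and 12575 counts in EtOH libraries. On the scaled measure these were 5316, 7147, 4525 and 4419 CPM against 0, 1582, 2483 and 2426 CPM. The 0 in EtOH replicate 1 stands beside 317 counts of miR-19a-3p in the same library, and the lowest level of any other library, 1582 CPM, would have given it 10142 counts. Such isolated zeros, where the other libraries of the group had a median of 50 or more counts, occurred in 60 tested features, 32 of them miRNAs, and how they came about was not tested.

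With the 0 included, miR-19b-3p had a log2 fold change of -1.72 (SE 1.22, edgeR adjusted p = 0.394). Without EtOH replicate 1 it was -1.12 (SE 0.40, edgeR adjusted p = 0.0972). The ratio of miR-19b-3p to miR-19a-3p counts was 14.7, 13.03, 22.4 and 17.1 in controls and 26.7, 11.9 and 14.6 in EtOH libraries 2 to 4, so the groups overlapped there.

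miR-92a-3p and miR-25-3p share a seed across clusters. miR-92a-3p was at 2433, 2289, 2294 and 2052 CPM in controls and at 619, 493, 866 and 997 CPM in EtOH libraries. Its control values were close together, 2267 ± 158 CPM (SD, n = 4), and well apart from the EtOH mean of 744 ± 229 CPM (SD, n = 4). The log2 fold change was -1.61 (SE 0.36, edgeR adjusted p = 0.0525).

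miR-25-3p was at 2090, 2525, 1371 and 1204 CPM in controls and at 786, 502, 693 and 578 CPM in EtOH libraries. The groups were separate, with control replicates 1 and 2 above controls 3 and 4. Its log2 fold change was -1.49 (SE 0.37, edgeR adjusted p = 0.0525). miR-93-5p and miR-25-3p come from 1 primary transcript, and their count ratio was 1.48 to 1.78 in controls and 1.25 to 1.89 in EtOH libraries.

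**Figure D2:**
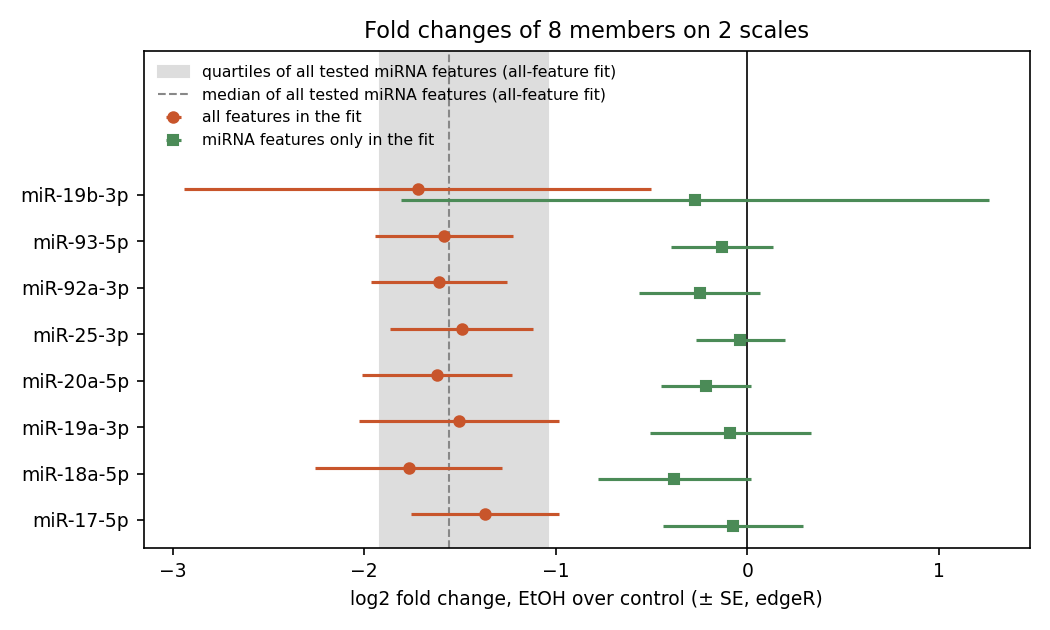
Log2 fold change (EtOH over control) with its standard error for the 8 tested members, in the fit of all features and in the fit of miRNA features alone. Values lie between -1.77 and -1.37 against all features and between -0.38 and -0.04 among miRNAs.

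The count of members past a threshold depended on the tool and the libraries. With edgeR it was 0 of 8 after adjustment, and at an unadjusted p below 0.05 it was 7 of 8, beside 9.15% of all features and 66.7% of miRNA features. DESeq2 called 7 members lower, where it called 4.05% of all features and 52.9% of miRNA features. limma voom called all 8, where it called 2.34% and 32.5%. With edgeR the adjusted p of 6 members lay between 0.0525 and 0.0545, close to the threshold. At an adjusted p of 0.1 the count was 7, beside 4.09% and 52.6%. With the log total count as a covariate edgeR called 7, beside 10.1% and 61.4%, and without features with isolated zeros it called 5 of 7, beside 1.73% and 41.3%.

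Single libraries moved the edgeR count. Without EtOH replicate 2 it was 4 (miR-20a-5p, miR-18a-5p, miR-93-5p and miR-92a-3p), where 1.83% of all features and 26.9% of miRNA features were called lower. Without EtOH replicate 3 it was 7, beside 3.63% and 58.2%. The EtOH libraries also differ in how their sample identifiers begin. EtOH replicates 1 and 2, with identifiers in M, gave 7 calls against the 4 controls and a median log2 fold change of -2.11, where 2.69% of all features and 38.8% of miRNA features were called lower. EtOH replicates 3 and 4, with identifiers in EM, gave 0 calls and a median of -1.13, where 0.0565% and 0% were called. What the identifiers stand for is not stated, so a batch cannot be told apart from spread between samples.

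Measured against other miRNAs the fitted changes of the members were smaller than or near their standard errors. In a fit of miRNA features alone the log2 fold changes ran from -0.38 for miR-18a-5p to -0.04 for miR-25-3p, with edgeR adjusted p between 0.761 and 0.976. None of 8 passed, where 0% of miRNA features did in the lower direction, and none had an unadjusted p below 0.05. At that level 2.63% of miRNA features were lower in EtOH, while 8.77% were higher. The median of the members was -0.17 and that of all miRNA features tested -0.11. That median depended on the libraries: it was -0.39 without EtOH replicate 4, -0.02 without EtOH replicate 1, -0.46 with EtOH replicates 1 and 2 alone and 0.07 with EtOH replicates 3 and 4 alone. With EtOH replicates 1 and 2 alone, 2 members had an unadjusted p below 0.05, miR-18a-5p at -1.13 (SE 0.38, edgeR adjusted p = 0.518) and miR-19a-3p at -0.99 (SE 0.39, edgeR adjusted p = 0.518). With an SE of 0.23 to 0.42 apart from miR-19b-3p, whose SE was 1.54, shifts of small size within the class were not detectable.

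As a share of miRNA counts the 9 members together held 7.04, 5.18, 5.56 and 5.78% in controls and 3.18, 5.49, 5.51 and 7.63% in EtOH libraries. The lowest and the highest share were both EtOH libraries, and the lowest is the library with miR-19b-3p at 0. Leaving that member out, the shares were 4.55, 3.18, 3.47 and 3.53% in controls and 3.18, 3.08, 3.13 and 4.47% in EtOH libraries. By this measure no tested member had groups without overlap, and 0.877% of tested miRNA features did in the lower direction. The untested miR-106b-5p held 0.000648 to 0.00125% in controls and 0 to 0.000461% in EtOH libraries, which do not overlap.

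**Figure D3:**
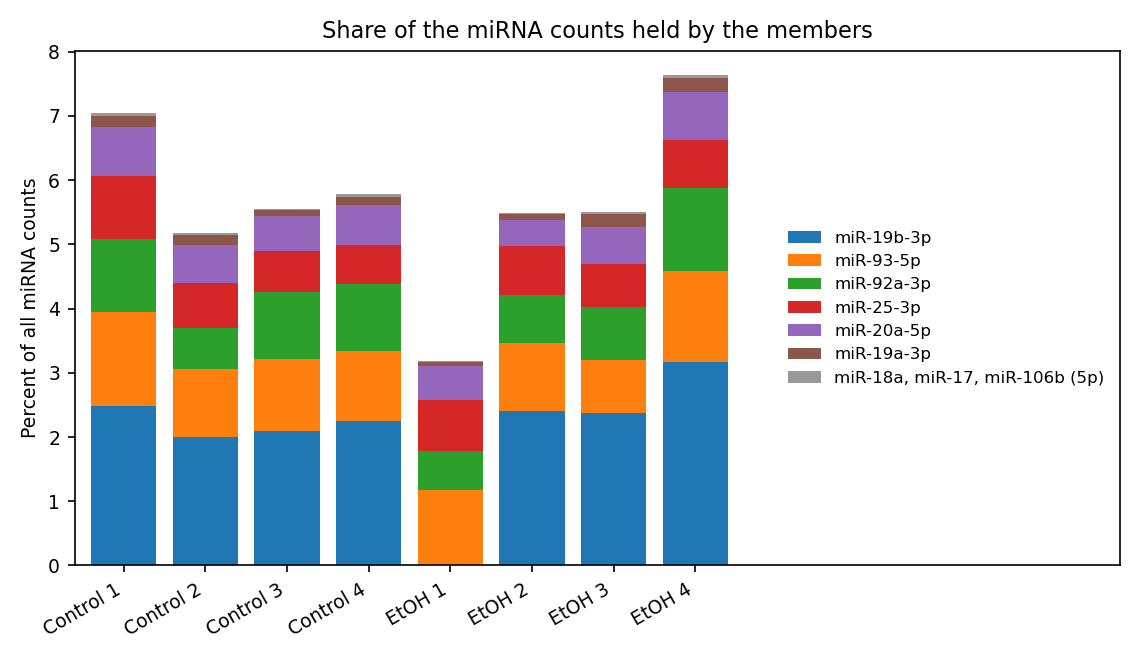
Percent of all miRNA counts held by the members in each of the 8 libraries, stacked by member. The stacks reach 5.18 to 7.04% in controls and 3.18 to 7.63% in EtOH libraries, and EtOH replicate 1 lacks the miR-19b-3p block.

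In amount, the summed members came to 15032, 18509, 12048 and 11360 CPM in controls and to 3197, 3608, 5762 and 5859 CPM in EtOH libraries. The means of 14237 ± 3264 and 4607 ± 1401 CPM (SD, n = 4 each) correspond to a log2 ratio of -1.63. The 4 members found only in miR-17/92 gave a ratio of -1.60, the 3 of miR-106b/25 gave -1.55, and miR-19b-3p with miR-92a-3p, encoded in both miR-17/92 and miR-106a, gave -1.69 with the 0 included. These 3 sums share libraries and scaling, and no difference between them was tested.

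By mean CPM in the controls, the order of levels was miR-19b-3p, miR-93-5p, miR-92a-3p, miR-25-3p, miR-20a-5p, miR-19a-3p, miR-18a-5p, miR-17-5p and miR-106b-5p. The levels ran from 5352 to 2.41 CPM. The control ranges overlapped between miR-93-5p and miR-92a-3p, between miR-92a-3p and miR-25-3p, and between miR-25-3p and miR-20a-5p. All other neighbours in the order had separate control ranges. Among 948 miRNA features with a count, miR-19b-3p ranked 13 by CPM in controls and 14 in EtOH libraries, and miR-92a-3p ranked 22 and 25.

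Some arms cut from 1 primary transcript were far apart in counts. How far counts of different sequences reflect their amounts was not tested. miR-20a-5p had 33432 counts over the 8 libraries and miR-17-5p 217, a ratio of 154, although both arise from Mir17hg and differ at 2 bases. miR-93-5p had 62735 counts and miR-106b-5p 37, a ratio of 1696. The ratio of miR-20a-5p to miR-92a-3p was 0.671 ± 0.175 in controls and 0.673 ± 0.156 in EtOH libraries (SD, n = 4 each). miR-92a-3p is also encoded on chromosome X, so that ratio may not compare arms of 1 transcript.

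For miR-17 and miR-106b the other arm had comparable or more counts, so the hairpins are shown with both mature arms in capitals, the 5p arm first.
mir-17: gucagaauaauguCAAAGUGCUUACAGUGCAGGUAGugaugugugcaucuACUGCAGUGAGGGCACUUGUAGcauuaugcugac
mir-106b: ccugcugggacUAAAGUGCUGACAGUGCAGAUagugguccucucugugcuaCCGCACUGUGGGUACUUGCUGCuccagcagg

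miR-106b-3p had 123, 224, 98 and 115 counts in controls and 112, 33, 0 and 54 in EtOH libraries. Over all libraries that was 759 counts against 37 of the listed 5p arm, a ratio of 20.5. The arm listed as the main one thus had fewer counts here. miR-106b-3p was at 39.2 ± 19.7 CPM in controls and 9.47 ± 7.19 CPM in EtOH libraries (SD, n = 4 each), with a log2 fold change of -2.05 (SE 0.86, edgeR adjusted p = 0.148). Its 0 in EtOH replicate 3 is another isolated zero.

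miR-17-3p had 34, 52, 10 and 25 counts in controls and 11, 8, 16 and 9 in EtOH libraries, 165 in all against 217 for miR-17-5p. In CPM its groups were separate, 8.46 ± 5.58 against 2.07 ± 0.402 (SD, n = 4 each), with a log2 fold change of -2.02 (SE 0.51, edgeR adjusted p = 0.0525). Among miRNAs alone the value was -0.46 (edgeR adjusted p = 0.715).

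**Figure D4:**
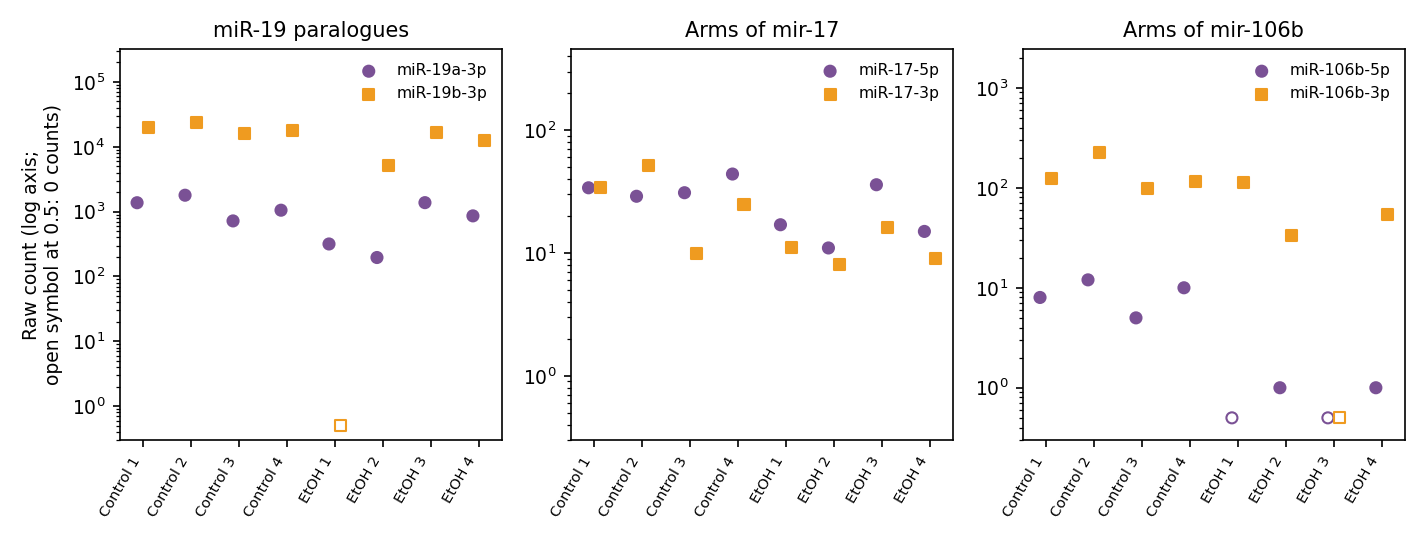
Raw counts (log axis) in each of the 8 libraries of miR-19a-3p and miR-19b-3p and of the 5p and 3p arms of mir-17 and mir-106b, with open symbols at 0.5 for 0 counts. miR-19b-3p lies above miR-19a-3p except in EtOH replicate 1, and miR-106b-3p above miR-106b-5p except in EtOH replicate 3, where both are at 0.

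Of 18 other mature products of the 3 clusters, 13 had any counts, and the 11 besides these arms summed to 102 counts. The products made only by the X-linked cluster were at very low counts: miR-20b-5p had 9 counts over all libraries, miR-363-5p 3, miR-363-3p 2 and miR-18b-5p 1. In the hairpin class 7 of 15 precursors had any counts, which summed to 30 in controls and 45 in EtOH libraries. Within the miRNA class 5 precursor names summed to 33 counts in all. None of them was tested.

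Among 7 further mouse miRNAs that share a seed with a member, only miR-32-5p, which has the seed of miR-92a-3p, had enough counts. It had 131, 224, 56 and 49 counts in controls and 34, 16, 98 and 40 in EtOH libraries, which overlap. Its log2 fold change was -1.99 (SE 0.59, edgeR adjusted p = 0.0618), and -0.48 among miRNAs alone (edgeR adjusted p = 0.715).

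The host genes gave few reads. The exon row of Mir17hg had 0, 1, 3 and 1 counts in controls and 7, 3, 12 and 3 in EtOH libraries. Rows of Mcm7 exons summed to 28 counts in controls and 59 in EtOH libraries, and those of its introns to 30 and 55. Relative to library size the groups overlapped for both, with exons of Mir17hg at 0.349 ± 0.355 CPM in controls and 1.10 ± 0.524 CPM in EtOH libraries, and exons of Mcm7 at 1.94 ± 0.565 and 3.28 ± 2.51 CPM (SD, n = 4 each). No host gene row was tested, and the 7 listed transcription factors known to bind the host promoters, among them Myc and E2f1, had none tested either.

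For target messenger RNAs the library type gives fragments, and 12 exon features of 8 genes were tested from a list of 24 known targets. None passed the threshold with edgeR. At an unadjusted p below 0.05 there were 4 higher in EtOH and 0 lower, and the median log2 fold change was 0.76. The 4600 exon features tested had a median of 0.70, of which 36.8% were higher at that level and 3.35% lower. The lowest p belonged to 2 exons of Ccnd1, cyclin D1 of the G1 phase, with log2 fold changes of 1.72 (SE 0.49, edgeR adjusted p = 0.0552) and 2.49 (SE 0.75, edgeR adjusted p = 0.0637).

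Of 21 listed names of miRNA processing and function, some, among them Drosha and Dicer1, had no exon with enough counts to be tested. The 14 exon features tested came from 8 genes: Ago1, Ago2, Ago3, Ago4, Dgcr8, Khsrp, Tnrc6a and Tnrc6b. None passed, 2 of 14 were higher at an unadjusted p below 0.05, beside 36.8% of exon features, and the median log2 fold change was -0.09, beside 0.70. The lowest p belonged to an exon of Khsrp, which aids the processing of some precursors (1.62, SE 0.60, edgeR adjusted p = 0.107), and an exon of Ago1 (1.25, SE 0.51, edgeR adjusted p = 0.137). Summed over its rows, Ago2, the slicing Argonaute, was at 352 ± 59.1 CPM in controls and 331 ± 165 CPM in EtOH libraries (SD, n = 4 each).

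By the smallest root mean square difference of centred log2 profiles over the 8 libraries, the miRNAs most like the tested members were miR-30b-5p (0.355), miR-301a-3p (0.388) and miR-669a-3p (0.442), of 181 compared. The isolated zero weighs on that profile. Without miR-19b-3p, a choice made after the values were seen, they were miR-34c-3p (0.140), miR-467a-3p (0.185) and miR-669a-3p (0.191). miR-34c-3p, from a family abundant in testis and sperm, was at 475, 613, 345 and 329 CPM in controls and at 124, 94.2, 146 and 163 CPM in EtOH libraries.

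Among the cell type marker lists, the summed sperm genes, epididymal genes and leukocyte miRNAs did not overlap between groups, while the sums of all other lists did. In bulk libraries fewer cells of a type cannot be told apart from less RNA per cell. The 10 sperm genes, all detected, summed to 524 to 658 CPM in controls and 266 to 427 CPM in EtOH libraries. The lowest p among them belonged to exons of Smcp, a mitochondrial capsule protein (log2 fold change -1.20, SE 0.38, edgeR adjusted p = 0.0719), and Spem1 (-1.24, SE 0.42, edgeR adjusted p = 0.0899).

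The 10 epididymal genes, all detected, summed to 417 to 602 CPM in controls and to 2654, 17052, 729 and 1372 CPM in EtOH libraries 1 to 4. Crisp1, a secreted protein that coats sperm, carried most of that sum, with 306 to 525 CPM in controls and 566 to 11537 CPM in EtOH libraries. Cd52 and Adam7 were also without overlap. Defb2 overlapped, at 6.59, 1.22, 4.50 and 1.72 CPM in controls and 22.6, 420, 5.15 and 2.32 CPM in EtOH libraries. Lcn5, Lcn8, Lcn9, Spag11b, Cst8 and Cst11 were at 0 to 2.51 CPM in every library, overlapped between groups, and were at 0 in control replicates 2 and 4. The lowest p belonged to an exon of Cd52 (log2 fold change 4.13, SE 0.90, edgeR adjusted p = 0.0525) and 1 of Crisp1 (4.30, SE 0.996, edgeR adjusted p = 0.0525). In EtOH replicate 3 the epididymal sum was nearest to the controls, though still above each of them. The members summed to 5762 CPM there, below every control library. That is a single library, and a link between these sums was not tested.

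Blood-cell miRNAs had higher mean levels in controls, beside a median log2 fold change of -1.56 for all miRNA features tested. The 4 detected red blood cell miRNAs summed to 216, 769, 95.5 and 1056 CPM in controls and to 44.2 to 101 CPM in EtOH libraries. Their leading one, miR-451a, was at 61.5 CPM in control replicate 3 and 62.4 CPM in EtOH replicate 3. Red blood cell genes in these libraries summed to 26.4 and 1.67 CPM, so their red blood cell signal was not matched. The members summed to 12048 and 5762 CPM there, and a link to blood content was not tested. Red blood cell genes, 5 of 5 detected, summed to 17.9 to 41.9 CPM in controls and 1.67 to 19.5 CPM in EtOH libraries, and the 1 exon tested, of the globin gene Hbb-bs, had a log2 fold change of -0.996 (edgeR adjusted p = 0.336). Besides miR-451a at -3.03 the lowest p in that miRNA list belonged to miR-144-5p at -3.08 (edgeR adjusted p = 0.0525 for both). Among miRNAs alone miR-451a was at -1.63 and miR-144-5p at -1.74 (edgeR adjusted p = 0.455 and 0.415).

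Leukocyte miRNAs, 4 with a row, summed to 247 to 365 CPM in controls and 24.5 to 144 CPM in EtOH libraries. Of these, miR-142a-5p was at 0 in control replicate 2 and EtOH replicates 1 and 2, and miR-142a-3p had no counts. miR-223-3p, a myeloid miRNA, was at 24.97 ± 20.1 CPM in controls and 5.97 ± 1.60 CPM in EtOH libraries (SD, n = 4 each), with a log2 fold change of -2.06, and miR-150-5p had -2.63 (edgeR adjusted p = 0.0525 for both). Among miRNAs alone miR-223-3p was at -0.44 and miR-150-5p at -0.98 (edgeR adjusted p = 0.715 and 0.666). Leukocyte genes, 7 of 7 with a row, summed to 3.43 to 12.9 and 4.09 to 14.2 CPM, which overlap, and endothelial genes to 0.791 to 2.21 and 0.303 to 1.67 CPM. Smooth muscle genes summed to 21.1 to 131 and 16.2 to 46.9 CPM, smooth muscle miRNAs to 2017 to 42888 and 1469 to 3796 CPM, and epithelial miRNAs to 1325 to 5315 and 1185 to 2977 CPM. The lowest p in these miRNA lists belonged to miR-145a-5p at -2.80 (edgeR adjusted p = 0.0654), miR-143-3p at -2.29 (0.0768), miR-200b-3p at -0.78 (0.292) and miR-429-3p at -0.31 (0.704). Among miRNAs alone they were at -0.91, -0.61, 0.48 and 0.99 in that order (edgeR adjusted p = 0.715, 0.761, 0.807 and 0.415). The part of other cell types in the members' levels was not tested.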

How the data were processed

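Small RNA of 8 mouse sperm libraries was sequenced by the submitters, who used the first read of each pair, per the labels. The submitters' processing notes name cutadapt, which trims adapters, with no version. The authors deposited whole-number counts per annotated feature, not normalized, in 1 table for all libraries. Aligner, build, annotation and the treatment of reads with several matches: not given in the sources used here. The treatment label set the groups, and each table column carries a sample title that assigns it. The labels carry no replicate numbers, so none pair samples.

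Features were kept by filterByExpr in edgeR 4.0.16 (minimum count 10, minimum total 15), which left 10234. Scaling used the trimmed mean of M values, and the test was quasi-likelihood, in R 4.3.3. The SE is the size of the log2 fold change divided by the square root of F. Sums over members or lists use the same scaled library sizes. Depth was 3116421 to 6805989 counts per library. The counting interval does not cover spread between libraries, nor amplification, as no molecular tags are named. Within groups, pairs of libraries differed by 143 to 1075 in chi-square per degree of freedom over miRNA features, so none was treated as a repeat. The edgeR fit was tested before use on simulated data whose dispersion was set lower than the real one. The other tools and steps were not tested in that way.

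Named were all members, other arms with a mean count of 10 or more, host genes, tested miRNAs sharing a seed, the 3 nearest profiles on log2(CPM + 1), and the 2 features of lowest p in each gene list. The Argonaute sum, single marker libraries, epididymal and red blood cell genes given by level and the low X-linked products were named after their values were seen. Members and lists were chosen with earlier results of these data known, so no test is made over a list. Alternatives were other scalings, DESeq2 1.42.0, limma 3.58.1 voom with quality weights, other filters, each library left out, the log total as covariate, EtOH libraries by identifier form, and miRNA features alone. Sums without miR-19b-3p and the composition and miRNA-class results under left-out libraries were added after the data were seen.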

Additional observations from a re-analysis of the deposited data

Results flagged for a closer look

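Single libraries stood far from the other 3 of their group in 3 of 42 groups of 4 values checked, by the gap to the nearest value relative to the range (Dixon's 95% limit), which chance passes in about 1 of 20 groups. miR-17-5p in the controls was at 10.8 CPM in replicate 4, where the others lay between 8.71 and 8.97 CPM. miR-93-5p held 1.45% of the miRNA counts in control replicate 1, against 1.06 to 1.12% in the other controls. The members without miR-19b-3p together held 4.47% of the miRNA counts in EtOH replicate 4, against 3.08 to 3.18% in the other EtOH libraries.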

How the results depend on the processing

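The number of members past the threshold was 0 with edgeR, and also 0 with library size alone, factors by median of ratios, piRNA cluster scaling, a mean count of at least 10, miRNA features alone and the EtOH libraries in EM. It was 7 with DESeq2, 8 with limma voom, 7 with the log total count as a covariate, 7 with the EtOH libraries in M, 7 at an adjusted p of 0.1, 5 of 7 without features with isolated zeros, and 1 of 9 with no filter. The eighth call of voom, miR-19b-3p, has a log2 fold change of -8.04 that rests on its 0. Leaving out 1 library gave 0 to 7 calls, where 0 to 58.2% of miRNA features and 0.0185 to 3.63% of all features were called lower. With library size alone, median-of-ratios factors, piRNA scaling, a mean count of at least 10 or the EtOH libraries in EM, 0% of miRNA features were called lower. Of all features these settings called 0.00977 to 0.0798% lower. The median log2 fold change of -1.59 was -0.17 among miRNA features alone, -2.11 with the EtOH libraries in M and -1.13 with those in EM, and -1.78 to -1.37 with 1 library left out. The log2 ratio of the summed members, -1.63, was -0.11 against miRNA counts and -2.06 with the EtOH libraries in M, and -1.76 to -1.48 with 1 library left out. The difference in the members' share of miRNA counts, -0.43 percentage points, ran from -1.16 to 0.32 with 1 library left out and turned positive only without EtOH replicate 1. Within the miRNA class 0 members passed under each setting run, but the sign of single members turned in some of those fits, for example miR-19a-3p at 0.31 and miR-19b-3p at 0.27 without EtOH replicate 1, miR-17-5p at 0.23 without control replicate 4, miR-25-3p at 0.14 without control replicate 1 and miR-19a-3p at 0.54 with the EtOH libraries in EM. In the fits of all features and in the miRNA fit of all 8 libraries every tested member stayed below 0. The median of all features was -0.09 with the trimmed mean of M values, 0.18 with library size alone and 0.15 with piRNA scaling. The cause of these shifts was not tested. No paired analysis was possible because the labels carry no replicate numbers shared between the groups. miR-106b-5p, the precursors and 11 other products were below the count filter.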
